A study of Mus musculus with 12 samples.

Results

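The span from activated B cell to plasmablast in the absence of Mzb1 was measured in 4 RNA-seq libraries, 2 of Mzb1-null plasmablasts and 2 of Mzb1-null activated B cells, out of 12 libraries in the series. They were taken by genotype and sorted population as labelled. B cells were enriched from C57BL/6 mouse spleen with beads against B220 and kept for 4 days with lipopolysaccharide (LPS, a bacterial wall component that activates B cells) at 25 µg/ml. All mice, controls included, carried 1 Prdm1 allele with a green fluorescent protein (GFP) reporter, Prdm1+/gfp, so that GFP marked cells with an active Prdm1 gene, the source of the transcription factor Blimp1. The ko mice were Mzb1-/- and the wt mice Mzb1+/+. In each genotype, activated B cells were CD138- and Blimp1-GFP-, pre-plasmablasts were CD138- and Blimp1-GFP+, and plasmablasts were CD138+ and Blimp1-GFP+, with 2 libraries in each of the 6 groups. CD138 is the product of Sdc1, so Sdc1 and Prdm1 follow the gates of the sort and are no independent result. The labels give no age, no pooling of animals and no statement that the 2 libraries of a group came from separate mice, so p-values measure only the spread between these libraries. The sorted cells are a culture model in which every cell was exposed to LPS, including those that stayed undifferentiated.

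Plasmablasts are dividing, antibody-secreting cells that form from activated B cells. Blimp1 shuts down B cell genes, Irf4 acts with it, and the transcription factor Xbp1 enlarges the endoplasmic reticulum (ER), the compartment in which secreted proteins are folded, disulfide-bonded and given their sugar chains. Mzb1 is an ER protein of B-lineage cells that works as a co-chaperone of Grp94, the product of Hsp90b1, in the folding of immunoglobulin heavy chains and integrins.

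Values are FPKM, fragment counts scaled to transcript length and to the mapped fragments of the library, as the authors deposited them. Changes are differences of log2(FPKM + 1) with the standard error (SE) of the limma fit, and understate the change of genes with low FPKM. A gene is called when its limma p, adjusted by Benjamini-Hochberg over the 11069 genes that reached 1 FPKM in 2 or more libraries, is below 0.05. In libraries of sorted bulk cells, fewer cells of a type and less RNA per cell cannot be told apart.

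Mzb1, the deleted gene, stood at 273 and 289 FPKM in ko activated B cells, 899 and 871 in ko pre-plasmablasts, and 1008 and 926 in ko plasmablasts. In wt cells it stood at 845 and 1016 FPKM in activated B cells and at 15434 and 17359 in plasmablasts. The ko libraries were thus below every wt library of the same population, yet transcripts assigned to Mzb1 were present in all of them and rose along the span by 1.78 (SE 0.13, limma adjusted p = 5.89e-07). The labels do not say which part of the gene was deleted, and FPKM for a whole gene do not show which exons were read.

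The libraries compared summed to between 430170 and 566117 FPKM, with 10198 to 10466 genes at 1 FPKM or more, and the log2 values of replicates correlated across genes at 0.986 to 0.987. The files hold no counts, so sequencing depth is unknown. Small RNA genes took 2.27% and 5.69% of the FPKM of ko activated B cells and 3.92% and 3.23% of those of ko plasmablasts. The lowest FPKM values, which come from few fragments, fell into 2 patterns. For genes under 0.5 FPKM, pairs of libraries within a pattern shared the most frequent FPKM ratio (within 0.002 in log2) in 7.70% to 20.5% of genes, and pairs across patterns in 2.13% to 4.89%. Replicate 1 of ko activated B cells had the pattern of all wt libraries, while its replicate 2 and both ko plasmablast libraries had the other. What sets the patterns apart is not given in the sources used here. With the pattern as a term in the fit, 3270 genes were called higher and 3264 lower over the span. No fit within the second pattern alone was run. Leaving out replicate 1 of ko activated B cells leaves that group without spread, and libraries of the first pattern still enter the estimate.

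Transcripts that define other cell types were scarce. Of 13 T cell markers 4 were tested, and Cd3e and Themis were at 0 in all ko libraries. The summed level of the list was 173.5 and 194 FPKM in ko activated B cells and 49.5 and 50.2 in ko plasmablasts, most of it from Cd2, which B cells also express. Natural killer cell markers summed to 0.428 and 0.305 FPKM in ko activated B cells and to 5.75 and 5.82 in ko plasmablasts, macrophage and neutrophil markers to between 32.5 and 56.3, and dendritic cell markers to between 9.05 and 23.0. Erythroid, platelet, mast cell and basophil markers summed to 0.115 and 0.390 FPKM in activated B cells and to 1.71 and 1.84 in plasmablasts, and stromal and endothelial markers to at most 1.36. The part of other cells in the results was not tested. In the 4 libraries Xist stayed between 0.0195 and 0.389 FPKM, and Ddx3y, on the Y chromosome, between 15.7 and 20.1.

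The labels of the 2 populations held against their markers. Jchain, which encodes the chain that joins immunoglobulin M and A into polymers, stood at 14.3 and 39.2 FPKM in ko activated B cells and at 16299 and 19530 in ko plasmablasts. Sdc1 went from 0.989 and 1.44 FPKM to 66.5 and 98.4. Pax5, the factor that holds cells in the B lineage, went the other way, from 190 and 191 FPKM to 7.24 and 5.92. No library of either population reached into the range of the other for any of these 3 genes, which held for 81.2% of all genes tested. Sdc1 follows the CD138 gate and is no independent check.

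**Figure D1:**
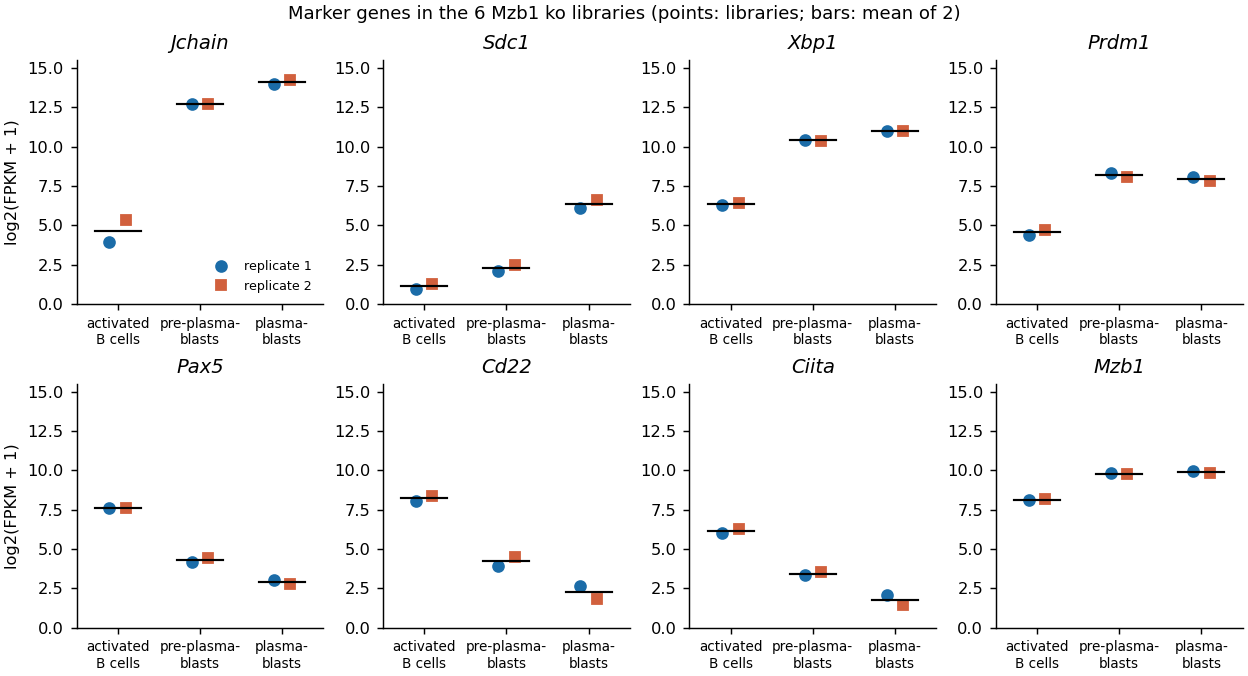
Level of 8 genes in the 6 Mzb1 ko libraries, as log2(FPKM + 1), by sorted population. Circles are replicate 1, squares replicate 2 and bars the mean of both. Jchain, Sdc1, Xbp1 and Prdm1 are high in plasmablasts, Pax5, Cd22 and Ciita are low there, and transcripts assigned to Mzb1 rise although the gene is deleted.

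Of the 11069 genes, 6880 (62.2%) were called over the ko span, 3458 higher (31.2%) and 3422 lower (30.9%) in plasmablasts. Genes called with a log2 change of at least 1 numbered 2422 (21.9%), of which 1443 were higher (13.0%) and 979 lower (8.84%). In 8987 genes (81.2%) the libraries of the 2 populations did not overlap. The median log2 change over all genes was -0.01, with quartiles of -0.45 and 0.51. Scaled to equal totals, the sum of FPKM without small RNA genes, the same libraries gave 2445 higher and 5097 lower. That sum is larger in ko plasmablasts (507131 and 547825) than in ko activated B cells (420426 and 435947), so the median gene then shifts to -0.27. The counts of gene lists below are to be read against these shares, and small changes against that shift.

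**Figure D2:**
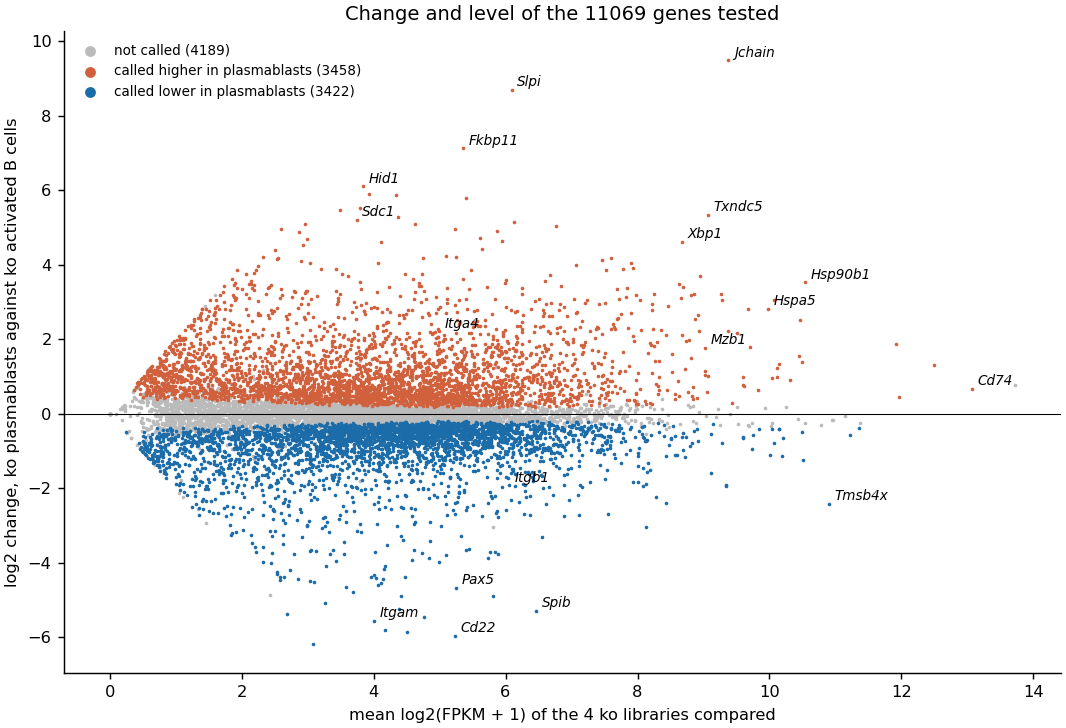
Log2 change of each of the 11069 genes tested, ko plasmablasts against ko activated B cells, against its mean log2(FPKM + 1) in the 4 libraries. Orange points are the 3458 genes called higher, blue the 3422 called lower and grey those not called. Jchain, Slpi and Fkbp11 have the highest changes among the genes named, and Cd22 is near the lower edge.

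The 15 largest rises with a mean of at least 5 FPKM in plasmablasts held secreted products, ER proteins, signalling proteins and inhibitory receptors. After Jchain (log2 change 9.49, SE 0.35, limma adjusted p = 5.43e-09) came Slpi, a secreted inhibitor of serine proteases, with 1.31 and 3.83 FPKM in activated B cells and 708 and 2728 in plasmablasts. Replicate 2 of Slpi was the higher in every ko and wt population, with 1171 and 5171 FPKM in the wt plasmablast replicates. Its change of 8.70 had the largest SE of the 15, 0.99. Fkbp11, a prolyl isomerase of the secretory pathway, rose from 1.92 and 3.10 to 453 and 520 FPKM, and Hid1, which acts in the sorting of secretory granule cargo, from 0.563 and 0.893 to 120 and 116. These genes were low in both activated B cell libraries and high in both plasmablast libraries. The inhibitory receptors Tigit and Lag3 reached 104 and 132 FPKM and 366 and 270 FPKM, with log2 changes of 5.90 and 5.80. Pik3cg, the catalytic gamma subunit of phosphoinositide 3-kinase, reached 147 and 161 FPKM (5.88), and the membrane adaptor Lax1, which dampens antigen receptor signalling, 403 and 429 (5.16). Bhlha15, the Mist1 transcription factor of secretory cells, rose from 1.96 and 2.73 FPKM to 125 and 133. The others were Selm (5.54), Gpx3 (5.49), Txndc5 (5.34), Sdc1 (5.22), the protease inhibitor Spint2 (5.11) and the adhesion molecule Epcam (5.09).

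The largest falls, among genes with at least 5 FPKM in activated B cells, included genes of B cell identity and of innate and antigen responses. Cd22, a sialic-acid binding inhibitor of the B cell receptor, fell from 261 and 336 FPKM to 5.39 and 2.56, a log2 change of -5.96 (SE 0.25, limma adjusted p = 1.13e-08). Spib, an Ets-family factor of B cells, fell from 543 and 558 to 17.2 and 9.94 FPKM. In both of these genes the lowest activated library was at least an order of magnitude above the highest plasmablast library. The integrin chain Itgam had a log2 change of -5.56, the transcription factor Klf2 of -5.45 and Mpeg1, a pore-forming protein of phagocytes, of -5.25. Haao (-5.07), Zbtb32 (-4.90), Il10ra (-4.89), Tlr9 (-4.79), Pax5 (-4.66), Wfdc17 (-4.64), Evl (-4.59) and Ms4a4c (-4.55) were also among them.

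**Figure D3:**
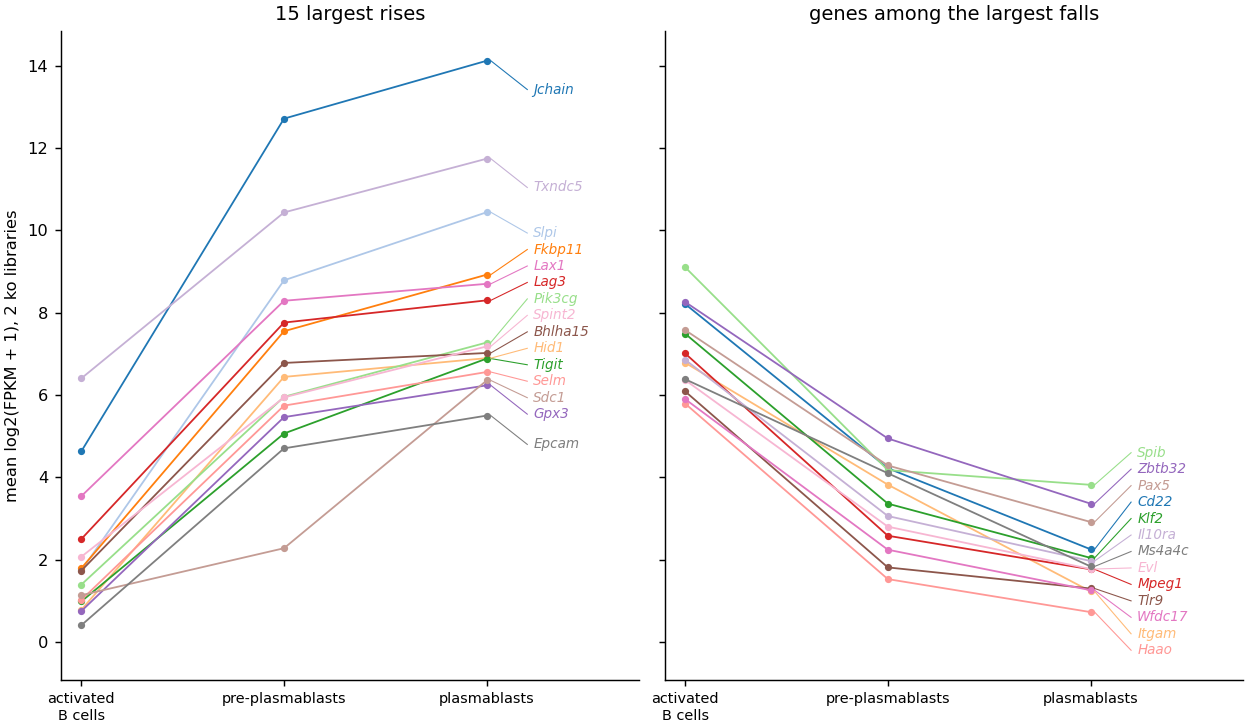
Mean log2(FPKM + 1) of the 2 ko libraries in each population for the 15 genes with the largest rises and for genes named in the text among the largest falls over the span; thin lines join the last point to the gene's name. Most lines take their steepest course between activated B cells and pre-plasmablasts, and Sdc1 takes it between pre-plasmablasts and plasmablasts.

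Plasma cell regulators and markers rose almost throughout: of 22 tested, 19 were called higher and 2 lower, with a median log2 change of 3.12. The list holds Sdc1 and Prdm1, which the gates used, and the deleted Mzb1. Xbp1 went from 76.5 and 86.8 FPKM to 2031 and 2013 (4.62, SE 0.09), and Prdm1 from 19.9 and 25.4 to 263 and 227 (3.39, SE 0.13). Irf4, already at 79.3 and 70.7 FPKM in activated B cells, reached 310 and 266. The replicates of these 3 factors lay close together and the populations did not overlap. Ell2, an elongation factor that favours the secreted form of immunoglobulin heavy chain RNA, rose from 17.3 and 18.3 to 216 and 216 FPKM, and its partner Eaf2 from 7.21 and 8.52 to 153 and 176. Fam46c, a poly(A) polymerase that stabilises secretory transcripts, rose from 36.4 and 46.1 to 698 and 789 FPKM. Tnfrsf17, the receptor BCMA of long-lived plasma cells, was listed at 0 in both activated B cell libraries and at 8.50 and 21.3 FPKM in plasmablasts. Those that fell were Pim2, a survival kinase, by 0.46, and Il6ra, the interleukin 6 receptor, by 1.12.

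B cell transcription factors fell as a group, with 23 of 32 called lower, 1 higher and a median of -0.84. Bcl11a went from 71.2 and 69.7 FPKM to 4.08 and 1.55, Ebf1 from 32.9 and 32.6 to 10.3 and 7.41, and Bach2, a repressor of Prdm1, from 22.2 and 21.5 to 5.0 and 5.25. Each of these was lower in both plasmablast libraries than in either activated library. Irf8 (-1.36) and Spi1 (-0.73) fell less on the log2 scale. Mef2c was the member called higher, at 38 and 36.7 against 59.8 and 69.5 FPKM (0.77). Ets1, a brake on plasma cell formation in other settings, was at 48.8 and 54.1 against 51.8 and 56.5 FPKM and was not called (0.07), and its sign turned with equal totals.

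Among 39 surface and receptor-signalling genes of B cells, 30 were called lower and 3 higher, with a median of -1.06. Cd72, an inhibitory co-receptor, fell from 219 and 195 FPKM to 15.3 and 14.2, Fcrl5 from 202 and 187 to 17.8 and 11.1, and Cd40, the receptor for T cell help, from 66.8 and 67.7 to 8.62 and 7.09. Ms4a1, which encodes CD20, fell by 0.78, far less than Cd22. The 2 signalling chains of the B cell receptor differed in course. Cd79a was at 886 and 957 FPKM in activated B cells, 1999 and 1747 in pre-plasmablasts and 1084 and 981 in plasmablasts, with no call over the span (0.16), whereas Cd79b fell by 0.66. The members called higher were Cr2 (2.06), Fcrla (1.90), an intracellular Fc receptor-like protein of the ER, and Blnk (0.26). The call of Blnk was lost, and its sign turned, with equal totals or quantile normalization. It was also lost without replicate 1 or 2 of ko activated B cells or replicate 2 of ko plasmablasts, with log2 changes of 0.24, 0.27 and 0.16.

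MHC class II genes present antigen to T cells. Of 16 tested, 10 were called lower and 3 higher, with a median of -0.65. The master regulator Ciita went from 63.7 and 76.4 FPKM to 3.31 and 1.71 (-4.37, SE 0.18, limma adjusted p = 1.2e-08). The non-classical class II genes H2-DMb2, H2-Oa and H2-DMa had log2 changes of -3.92, -3.94 and -2.19. The classical chains changed less on the log2 scale, H2-Aa from 1307 and 1528 to 893 and 756 FPKM (-0.78) and H2-Eb1 from 860 and 1074 to 694 and 566 (-0.62). H2-Ab1 fell by 0.41, a call lost without replicate 2 of ko activated B cells (-0.24) or of ko plasmablasts (-0.29). Cd74, the invariant chain that escorts class II molecules, was at 6100 and 7576 against 10313 and 11317 FPKM, 0.67 higher. That call did not stand without replicate 1 of ko activated B cells (0.51), and quantile normalization turned the value to -0.64. Ctss, the protease that trims the invariant chain, rose by 1.2, and Rfxank, a subunit of a class II promoter factor, by 0.67.

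ER chaperones and disulfide isomerases rose together, 35 of 40 tested called higher and 1 lower, with a median of 2.68. Hsp90b1, which encodes Grp94, the partner of Mzb1, went from 419 and 456 FPKM to 4704 and 5470 (3.53, SE 0.13, limma adjusted p = 4.88e-09). Hspa5, the Hsp70 chaperone BiP, went from 359 and 396 to 2606 and 2752 FPKM. Txndc5, a disulfide isomerase, rose from 76.0 and 92.3 to 3016 and 3894 FPKM, and Ppib, a prolyl isomerase, from 374 and 372 to 2836 and 3383. All 4 were several times higher in both plasmablast libraries, with replicates close to each other. Creld2 (3.93), Prdx4 (3.88), Dnajb9 (3.37), Dnajc3 (3.22), Sdf2l1 (3.22), Pdia6 (3.22), Manf (3.14), Pdia4 (3.06), Hyou1 (2.97), the oxidase Ero1lb (2.77), Dnajb11 (2.70) and P4hb (2.67) rose with them. Cnpy3 fell, from 80.4 and 75.8 FPKM to 15.8 and 12 (-2.42). It encodes a canopy-family co-chaperone that serves Grp94 in the folding of Toll-like receptors, and so stood opposite to Hsp90b1. Fkbp7, Tmx3, Cnpy4 and Tmx2 were not called.

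The ER stress element, to which the stress-activated factors ATF6 and, with NF-Y, Xbp1 bind, was searched for in RefSeq promoter windows of 300 bases (250 before and 50 after the start of each gene; build GRCm38.p6, whereas the expression files use mm9). Its letters are CCAAT and CCACG with 9 bases of any kind between them, on either strand. They occurred in 37 of 27025 genes with a window (0.137%), and in 8 of the 35 tested ER chaperone genes that had one (22.9%): Creld2, Hsp90b1, Dnajc3, Pdia6, Hspa5, Ero1lb, Calr and Canx, all called higher. Derl3 and Syvn1, of the degradation list below, held them as well. Of 28 key members of the ER chaperone, degradation and translocon lists, 24 had a window and 8 held the letters. Fkbp11 and Txndc5 were among those with a window but without the letters. The stretches of the 8 key members, picked because they hold the letters, are shown 5′ to 3′ on the gene's strand. Capitals mark the fixed letters, which read CGTGG and ATTGG where the element lies on the opposite strand. Hsp90b1 holds the element at 2 places in opposite orientation. A match is a description of the letters and not evidence of binding in these cells.
Hspa5, chr2:34771995-34772073, plus strand: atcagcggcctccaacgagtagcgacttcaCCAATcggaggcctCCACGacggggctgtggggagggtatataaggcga
Hsp90b1, chr10:86705608-86705686, minus strand: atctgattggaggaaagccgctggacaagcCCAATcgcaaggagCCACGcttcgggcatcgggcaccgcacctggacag
Hsp90b1, chr10:86705503-86705581, minus strand: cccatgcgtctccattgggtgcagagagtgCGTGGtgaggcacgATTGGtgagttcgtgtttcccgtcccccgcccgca
Creld2, chr15:88819490-88819568, plus strand: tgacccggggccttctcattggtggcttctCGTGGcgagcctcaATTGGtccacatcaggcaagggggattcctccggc
Pdia6, chr12:17266461-17266539, plus strand: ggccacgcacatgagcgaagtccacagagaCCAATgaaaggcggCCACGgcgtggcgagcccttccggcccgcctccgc
Dnajc3, chr14:118937797-118937875, plus strand: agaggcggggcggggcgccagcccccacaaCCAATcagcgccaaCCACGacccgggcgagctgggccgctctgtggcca
Ero1lb, chr13:12565652-12565730, plus strand: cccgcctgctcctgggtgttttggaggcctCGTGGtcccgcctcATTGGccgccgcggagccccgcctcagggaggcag
Derl3, chr10:75893212-75893290, plus strand: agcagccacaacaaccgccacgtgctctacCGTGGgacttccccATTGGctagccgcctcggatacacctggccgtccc
Syvn1, chr19:6046502-6046575, plus strand: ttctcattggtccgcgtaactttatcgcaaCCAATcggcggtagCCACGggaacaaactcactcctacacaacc

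Within the window searched, the nearer end of the element lay 46 bases before the start in Hspa5, 25 in Syvn1, 79 in Pdia6, 86 in Dnajc3, 107 in Creld2, 137 in Derl3 and 182 in Ero1lb, and 88 and 193 bases in Hsp90b1. Among all genes called higher, 11 of 2795 with a window held it (0.394%), and among those called lower 2 of 2774 (0.0721%). A shorter element that Xbp1 binds, TGACGTGG on either strand, occurred in 0.714% of all genes with a window and in 1.06% of the tested ones. Its share was 1.82% in genes called higher and 0.649% in those called lower. It was in 8 of 44 ER to Golgi genes with a window (18.2%): Kdelr3, Sec24d, Stx5a, Sec23a, Copb2, Copb1, Gbf1 and Arf1. Txndc5 and Txndc11 were the ER chaperone genes with it, 2 of 35 (5.71%). The first element was in none of the 44 ER to Golgi windows, so the genes named for the 2 elements differ. Not all rising lists of the secretory pathway held them. In the translocon list neither element was in any of the 22 genes with a window. In the N-glycosylation list the first was in 1 of 42 (2.38%) and the second in none. Blimp1 sites were searched as well. AGTGAAAG was in 1.29% of genes called higher and 1.48% of those called lower, and AGCGAAAG in 1.07% and 0.973%.

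ER-associated degradation, which returns misfolded proteins to the cytosol, rose in 24 of 25 genes, with none lower and a median of 1.84. Derl3, a channel component, went from 16.8 and 19.2 FPKM to 678 and 576 (5.05, SE 0.11, limma adjusted p = 2.59e-10). Edem2 and Edem1, which trim mannose from misfolded glycoproteins, rose by 3.99 and 3.39. Sel1l and Syvn1, the core of the main ubiquitin ligase of the ER membrane, rose from 37.1 and 36.5 to 239 and 250 FPKM and from 138 and 175 to 556 and 562 FPKM. Herpud1 rose by 2.28, and Ube2j2 was the member not called. Promoter windows were matched for 18 of these 25 genes, a small set. The ER stress element was in 2 of the 18 (11.1%), Derl3 and Syvn1. The shorter element was also in 2 (11.1%), Ube2j1 and Vcp.

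The stress sensors and ATF4 targets were less uniform, with 19 of 29 called higher, 5 lower and a median of 0.73 (16 higher and 8 lower with equal totals). The sensor Ern1, which encodes IRE1 alpha and splices Xbp1 RNA, rose from 5.2 and 6.47 to 41.4 and 47.1 FPKM. Atf6 rose by 1.00, Eif2ak3, which encodes the sensor PERK, by 0.79 and Atf4 by 0.73. Of the targets, the amino acid carrier chain Slc3a2 rose from 101 and 111 to 724 and 937 FPKM, Pycr1 by 2.85, Chac1 by 2.42, Ppp1r15a by 1.70 and Ddit3, which encodes the death-linked factor CHOP, by 1.11. Atf3 fell from 13.7 and 10.4 to 5.58 and 4.39 FPKM, Mthfd2 by 1.09, Nupr1 by 1.03 and Trib3 by 0.83. Known targets of the same factor thus moved in both directions. Asns was 0.27 higher, a call lost without replicate 2 of either population (0.25 in each case), and its sign turned with equal totals.

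Entry into the ER, sugar addition and exit to the Golgi rose as well. In the translocon, signal peptidase and signal recognition list, 25 of 29 were called higher and none lower, with a median of 1.73. Sec61a1, the channel itself, went from 102 and 123 FPKM to 725 and 839, Ssr4 of the translocon-associated complex from 127 and 145 to 1699 and 1884, and the signal peptidase subunit Sec11c from 306 and 307 to 1966 and 2384. Of 49 N-glycosylation genes 41 were called higher and 2 lower, with a median of 1.44. The oligosaccharyltransferase subunits led them, Ddost from 108 and 126 to 1175 and 1497 FPKM (3.49) and Rpn1 from 84.1 and 95.1 to 675 and 854 (3.07), with Krtcap2 at 3.19, Rpn2 at 2.91 and Stt3a at 2.56. The members that fell were Pmm1 (-0.92) and Pmm2 (-0.23), which encode the phosphomannomutases that supply mannose. The call of Pmm2 was lost without replicate 2 of ko activated B cells (-0.17) or without either ko plasmablast library (-0.24 and -0.23).

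In ER to Golgi transport, 50 of 51 genes were called higher, none lower, and the median was 1.61. Lman1, the cargo receptor ERGIC-53, went from 24.2 and 30.1 to 301 and 367 FPKM (3.57). Kdelr3, a receptor that returns ER proteins, was at 0.122 and 0 FPKM in activated B cells and at 8.85 and 9.55 in plasmablasts. The coat component Sec24d rose from 20.8 and 21.1 to 134 and 144 FPKM, and its partner Sec23b, from 44.2 and 47.9 to 119 and 124, by less (1.38). The 4 genes just named were higher in both plasmablast libraries than in either activated library. Mia3, which encodes the cargo receptor TANGO1, rose by 1.54.

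**Figure D4:**
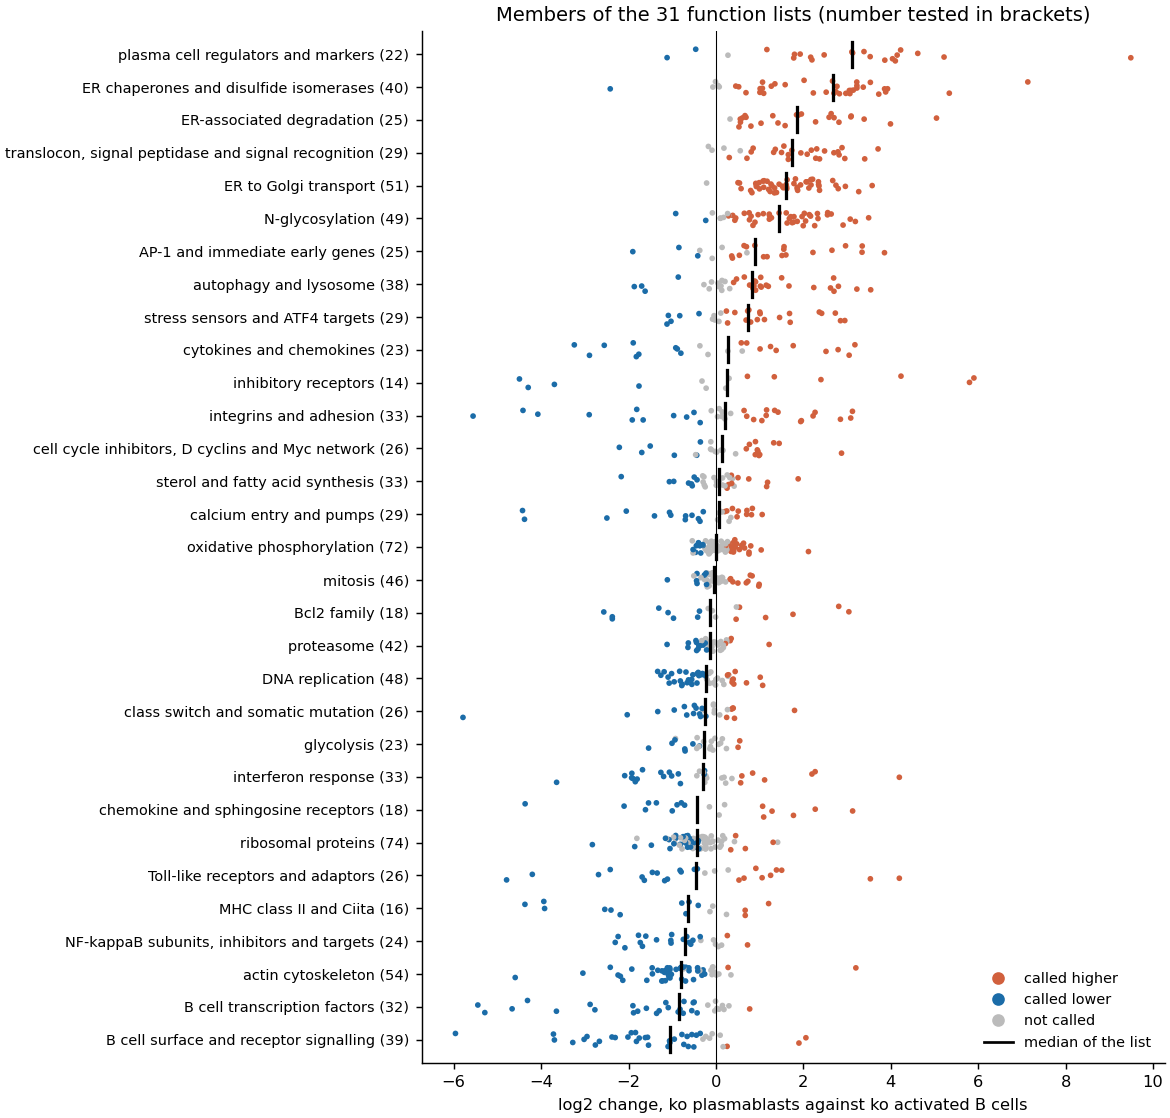
Log2 change of each tested member of the 31 gene lists, ko plasmablasts against ko activated B cells, ordered by the list's median (black bar). Orange points are members called higher, blue lower and grey not called. The 6 lists of plasma cell genes and of the secretory pathway have medians of 1.44 to 3.12, and the lowest median is that of B cell surface and receptor signalling, -1.06.

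Lists of growth and energy metabolism had medians between -0.44 and 0.08, and those of oxidative phosphorylation and of sterol and fatty acid synthesis changed sign with equal totals. Of 72 oxidative phosphorylation subunits 22 were called higher and 9 lower, with a median of 0.01. With equal totals there were 9 higher and 32 lower (median -0.29), with quantile normalization 11 and 32 (-0.21), and without replicate 2 of ko plasmablasts 13 and 9 (-0.06). Without replicate 1 of ko plasmablasts there were 22 and 5. Ndufa1 stood apart, at 173 and 158 against 702 and 738 FPKM (2.12). In glycolysis 2 of 23 were called higher and 7 lower, with a median of -0.28 (none higher and 15 lower with equal totals, and 1 higher without replicate 2 of either population). Pfkfb3, which makes an activator of phosphofructokinase, fell by 1.54, Gpi1 by 1.01 and Ldha by 0.71, while Pkm rose by 0.54. Sterol and fatty acid synthesis had 9 higher and 8 lower of 33, with a median of 0.08 (4 higher and 14 lower with equal totals, median -0.22). Insig1, a sensor of ER sterol, rose from 28.9 and 27.2 to 95.5 and 117 FPKM, and Scd1, which desaturates fatty acids, fell from 216 and 229 to 54.1 and 44.0. Of 42 proteasome genes 4 were called higher and 12 lower (median -0.15), and without replicate 1 of ko activated B cells or of ko plasmablasts 6 and 7 were lower. The activator Psme4 rose by 1.22. Ribosomal protein genes had 4 higher and 26 lower of 74 (median -0.44), a list whose many near-identical copies make gene-level FPKM uncertain. With equal totals the proteasome gave 1 higher and 30 lower, and ribosomal proteins 2 higher and 50 lower. With quantile normalization they gave 25 and 44 lower. Without replicate 1 of ko activated B cells or of ko plasmablasts the ribosomal median was -0.31 and -0.29. Without replicate 2 of these populations it was -0.51 and -0.54.

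Cell cycle genes did not move as a block. Of 48 DNA replication genes 24 were called lower and 10 higher (median -0.24; 33 lower and 3 higher with equal totals). Pold1 fell by 1.33, Tk1 by 1.26 and Chaf1b by 1.19, whereas the licensing factor Cdt1 rose from 22 and 26.0 to 51.4 and 51.1 FPKM and Fen1 from 70.6 and 73.0 to 146 and 146. Of 46 mitosis genes 10 were called higher and 7 lower (median -0.05; 6 higher and 20 lower with equal totals). Without replicate 1 of ko activated B cells there were 11 higher and 3 lower (median 0.12), without replicate 2 of ko plasmablasts 9 and 3 (0.06), and with the low-value pattern as a term 16 and 5 (0.12). Mki67, the proliferation marker, was at 65.9 and 63.6 against 129 and 129 FPKM (0.99), and Kif23, a motor of cell division, fell by 1.11. Among inhibitors, D cyclins and the Myc network, 11 of 26 were higher and 6 lower, with a median of 0.14 (11 and 10 with equal totals, median -0.15). Cdkn2b rose from 2.92 and 5.22 to 33.4 and 37.0 FPKM, Gadd45b by 1.45, Mxd4, a Myc antagonist, by 1.32 and Cdkn2c by 0.95. Ccnd3, the cyclin that drives growth of activated B cells, fell from 128 and 107 to 25.9 and 23.2 FPKM, and Btg1 fell by 1.70. Myc was at 49.7 and 52.8 against 39.5 and 40.1 FPKM (-0.36), a call lost without any 1 of the 4 libraries (-0.32 to -0.40).

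Adhesion genes, of interest because Mzb1 serves Grp94 and Grp94 folds integrins, moved both ways. Of 33 tested, 15 were called higher and 11 lower (all genes: 31.2% and 30.9%), with a median of 0.20 that became -0.09 with equal totals. Itgb1, the beta1 chain, fell from 122 and 135 to 31.4 and 35.4 FPKM (-1.91, SE 0.11, limma adjusted p = 1.14e-07), while its partner Itga4 rose from 11.9 and 16.0 to 61.1 and 75.6 (2.22). Both had non-overlapping libraries. Itgb7, the other partner of the alpha4 chain, fell by 2.90, and Itgb5 rose from 0.265 and 0.283 to 9.6 and 10.6 FPKM. Itgb2 rose by 1.34, Itgal was not called (0.14), and Itgam fell from 98.0 and 122 to 1.67 and 1.06 FPKM. Of the activators, Rasgrp2, which loads Rap1, fell by 4.41 and the kindlin gene Fermt3 by 0.97, and talin, Tln1, was not called (0.04).

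Actin cytoskeleton genes fell in 42 of 54 cases and rose in 2 (median -0.81). Tmsb4x, which encodes the actin-sequestering thymosin beta 4, went from 4307 and 4503 to 871 and 778 FPKM, Vim, an intermediate filament gene kept with this list, from 780 and 824 to 111 and 83.9, and Coro1a from 1133 and 1414 to 326 and 339. Pls1, a bundling protein, was the large exception, at 0.0638 and 0.033 against 8.66 and 8.61 FPKM. The other was Rdx (0.28), whose call was lost without replicate 1 of ko activated B cells (0.25) or replicate 2 of ko plasmablasts (0.24), and whose sign turned with equal totals.

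Receptors that place cells in the spleen and lymph nodes moved in both directions, 9 of 18 called lower and 6 higher (median -0.43). Of all genes, 30.9% were called lower and 31.2% higher. Ccr7, the receptor for T zone chemokines, fell from 93.7 and 106 to 4.43 and 3.40 FPKM, Cxcr5, the follicle receptor, from 68.9 and 74.8 to 18.0 and 14.2, and Gpr183 by 1.61. Cxcr4, the receptor of bone marrow homing, rose from 106 and 93.0 to 229 and 197 FPKM, and Ccr10, a receptor of mucosal plasma cells, from 1.22 and 1.37 to 23.4 and 15.4. S1pr2 rose by 1.77. S1pr1, the exit receptor, was 0.79 lower, a call lost without replicate 2 of ko activated B cells (-0.52) or replicate 1 of ko plasmablasts (-0.64).

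The list of Toll-like receptors, which recognise microbial products, and of their adaptors had 14 of 26 lower and 9 higher (median -0.46). Tlr4, the receptor for LPS, was low and not called, at 2.69 and 3.32 against 1.97 and 2.78 FPKM. Ly96, the MD-2 partner that binds LPS, rose from 14.6 and 17.4 to 35.9 and 43.1, and Ly86, the MD-1 partner of Cd180, fell from 483 and 472 to 72.6 and 74.0. Tlr9 and Tlr1 fell to below 2 FPKM, by 4.79 and 4.20. NF-kappaB subunits, inhibitors and targets were lower in 17 of 24 and higher in 2 (median -0.71). Traf1 fell from 87.7 and 78.8 to 21.3 and 13.3 FPKM, Map3k14 by 2.08, Relb by 0.67 and Nfkbia by 0.75, Birc2 rose by 0.72, and Rel was not called (-0.35). Chuk was 0.26 higher, a call lost without replicate 2 of ko activated B cells (0.21) or of ko plasmablasts (0.18), and its sign turned with equal totals.

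AP-1 and immediate early genes were higher in 18 of 25 and lower in 3 (median 0.89). Fos went from 9.72 and 11.8 to 181 and 157 FPKM, Zfp36, which destabilises cytokine RNA, from 61.9 and 65.7 to 707 and 608, and Egr1 from 32.3 and 27.2 to 236 and 156. Batf, an AP-1 factor needed for class switching, fell from 254 and 203 to 65.7 and 54.8 FPKM, and Egr3 by 0.85. In the interferon response 16 of 33 were lower and 7 higher (median -0.29). Irf7 rose from 4.09 and 6.80 to 108 and 121 FPKM, Bst2 by 2.27 and Zbp1 by 2.2, whereas Gbp2 fell by 3.65 and Ifit1 by 2.09. Cytokines and chemokines had 10 higher and 9 lower of 23, with a median of 0.27 that became -0.01 with equal totals and -0.21 without replicate 1 of ko activated B cells. Il10 rose from 14.5 and 15.6 to 124 and 66.6 FPKM, Vegfa by 3.05 and Ccl3 by 2.79, and Il6 fell from 9.59 and 10.6 to 0.37 and 0.

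Survival genes moved in both directions. Of 18 Bcl2 family genes 6 were called higher and 8 lower (median -0.13), not far from the shares over all genes (31.2% and 30.9%). The protectors Bcl2l1, which encodes Bcl-xL, and Mcl1 rose from 16.2 and 14 to 110 and 113 FPKM and from 261 and 266 to 391 and 375 FPKM, the latter call lost with quantile normalization. Bcl2 fell from 29.3 and 27.3 to 4.97 and 4.36, and Bcl2a1b and Bcl2a1d, near-identical copies whose reads cannot be safely split, fell by 2.37 and 2.57. Of the death inducers, Bcl2l11, which encodes Bim, rose from 27.7 and 31.4 to 195 and 320 FPKM and Bmf by 1.76. Autophagy and lysosome genes were higher in 24 of 38 and lower in 4 (median 0.83; 8 lower with equal totals). Ctsd rose from 77.6 and 91.2 to 496 and 608 FPKM, Ctsl by 3.54, Glb1 by 2.80 and the autophagy receptor Sqstm1 by 1.15, while their transcriptional activator Tfeb had a log2 change of -1.70.

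In calcium entry and pumps, 10 of 29 were higher and 13 lower (all genes: 31.2% and 30.9%), with a median of 0.07. With equal totals 5 were higher (median -0.20), and without replicate 1 of ko plasmablasts 6. The ER pump genes parted, Atp2a2 rising from 87.6 and 94.3 to 190 and 190 FPKM and Atp2a3 falling from 389 and 446 to 152 and 161. The ER release channel Itpr1 fell by 2.5, Itpr3 rose by 0.81, and the sensor Stim1 rose by 0.71. In class switching and somatic mutation 13 of 26 were lower and 6 higher (median -0.25; 16 lower and 1 higher with equal totals). Lig4 rose by 1.8. Of 14 inhibitory receptors 6 were higher and 4 lower. The median of 0.26 ranged from 0.03 to 0.48 when 1 library was left out (0.48 and 0.04 without replicate 1 or 2 of ko activated B cells, 0.03 without replicate 1 of ko plasmablasts). Ctla4 rose from 7.54 and 6.39 to 145 and 152 FPKM, while Ceacam1 fell by 4.50 and Pirb by 4.30.

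The ko pre-plasmablasts divide the span in 2 steps that share their libraries with it and with each other, so the values are set side by side. From activated B cells to pre-plasmablasts 5996 genes were called (54.2%), 3003 higher (27.1%) and 2993 lower (27.0%). From pre-plasmablasts to plasmablasts 1196 were called (10.8%), 727 higher (6.57%) and 469 lower (4.24%). The second count was the less stable. It fell to 383 and 632 without replicate 1 or 2 of ko pre-plasmablasts and to 377 without replicate 2 of ko plasmablasts, and with equal totals it held 389 higher and 1024 lower. The ER chaperone list had a median of 2.24 in the first step and 0.27 in the second, ER to Golgi transport 1.33 and 0.19, and the B cell surface list -0.84 and -0.25. Hspa5 stood at 2795 and 2427 FPKM in pre-plasmablasts and Prdm1 at 324 and 272, levels near those of plasmablasts.

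Among genes of the first step, Spib fell to 16.3 and 17.9 FPKM in pre-plasmablasts and Jchain rose to 6670 and 6785. Prg2, known as the eosinophil granule major basic protein, rose from 0.116 and 0.37 to 62.5 and 58.9 FPKM and was then lower in plasmablasts, at 16.6 and 15.2. The second step was led by Sdc1, from 3.24 and 4.56 to 66.5 and 98.4 FPKM (4.08, SE 0.19, limma adjusted p = 5.57e-06), as the gate requires. Tnfrsf17 rose from 0.709 and 1.07 FPKM to 8.50 and 21.3, Nrg2, a growth factor gene, from 0.863 and 1.19 to 8.65 and 11.3, and Tigit from 29.3 and 36.1 to 104 and 132. The receptor P2ry14 rose by 1.69. Genes that were lower after this step included Ltb, which encodes lymphotoxin beta, at 122 and 113 against 10.9 and 9.97 FPKM, and the phosphodiesterase Pde2a at 40.5 and 42.3 against 3.90 and 3.23. Apoe, the lipid carrier, passed through a peak, with 44.0 and 84.7 FPKM in activated B cells, 1466 and 2090 in pre-plasmablasts and 307 and 321 in plasmablasts. Itgam fell in both steps, by 2.96 and 2.59.

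Whether the span differed without Mzb1 was tested as the difference between the ko change and the wt change, 2 changes that share no library. Of 11069 genes 5 were called (0.0452%), 2 with a higher ko change (0.0181%) and 3 with a lower one (0.0271%), and 459 had an unadjusted p below 0.05. All wt libraries had the first low-value pattern and both ko plasmablast libraries the second. Genotype and pattern therefore cannot be fully told apart in this difference. With the pattern as a term, 3 genes were called with a higher ko change and 2 with a lower one. No difference was called for any member of the secretory lists or of the integrin list. The median change of ER chaperones was 2.68 in ko and 2.41 in wt cells, that of ER to Golgi transport 1.61 and 1.51, and that of integrins and adhesion 0.20 and 0.26. The widest gap among the 31 lists was in ribosomal proteins, with a median of -0.44 in ko cells (4 higher, 26 lower) and 0.05 in wt cells (7 higher, 10 lower), and no member of that list was called for the difference. Its ko median ranged from -0.54 to -0.29 when 1 of the ko libraries compared was left out. With 2 libraries a group, a difference that was not called is not shown to be 0. The SE of the difference was 0.18 for Hsp90b1, whose changes were 3.53 and 3.15, and 0.16 for Itgb1, whose changes were -1.91 and -2.01.

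The gene with the lowest p besides a small RNA gene was Mzb1 itself, which rose by 1.78 in ko and by 4.14 in wt cells (difference -2.36, SE 0.18, limma adjusted p = 0.000434). Atp9a, a lipid flippase of endosomes, went from 0.137 and 0.673 to 23.2 and 25.2 FPKM in ko cells. In wt cells it went from 0.0788 and 0.202 to 3.43 and 3.33 FPKM. The difference was 2.25 (SE 0.25, adjusted p = 0.00953). Its adjusted p was 0.999 with a pseudocount of 0.1, and 0.0527 to 0.0584 without either ko plasmablast library, either wt activated library or replicate 2 of wt plasmablasts. Cdkn2a, which encodes p16 and p19Arf, rose from 49.3 and 47.5 to 80.6 and 103 FPKM in ko cells and from 23.7 and 25.3 to 206 and 177 in wt cells (difference -2.01, SE 0.23, adjusted p = 0.0128). This call was lost without replicate 1 of either ko population or without any 1 wt library, at adjusted p from 0.0561 to 0.0956. Tpt1, which encodes the translationally controlled tumour protein, went from 71.7 and 65.4 to 48.3 and 55.6 FPKM in ko cells and from 51.2 and 64.4 to 104 and 113 in wt cells (difference -1.30, SE 0.16, adjusted p = 0.0194). It kept its call in leave-one-out fits only without replicate 2 of ko or of wt activated B cells, and had an adjusted p of 0.0601 with the low-value pattern as a term. Snora28, a small nucleolar RNA, was listed at 0 in all ko libraries and in wt plasmablasts, and at 76.2 and 33.5 FPKM in wt activated B cells. It passed the filter through the wt activated libraries alone and had no change in ko cells, so its difference of 5.69 on the log2(FPKM + 1) scale is the fall in wt cells, and 3 of the 4 groups had no spread.

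**Figure D5:**
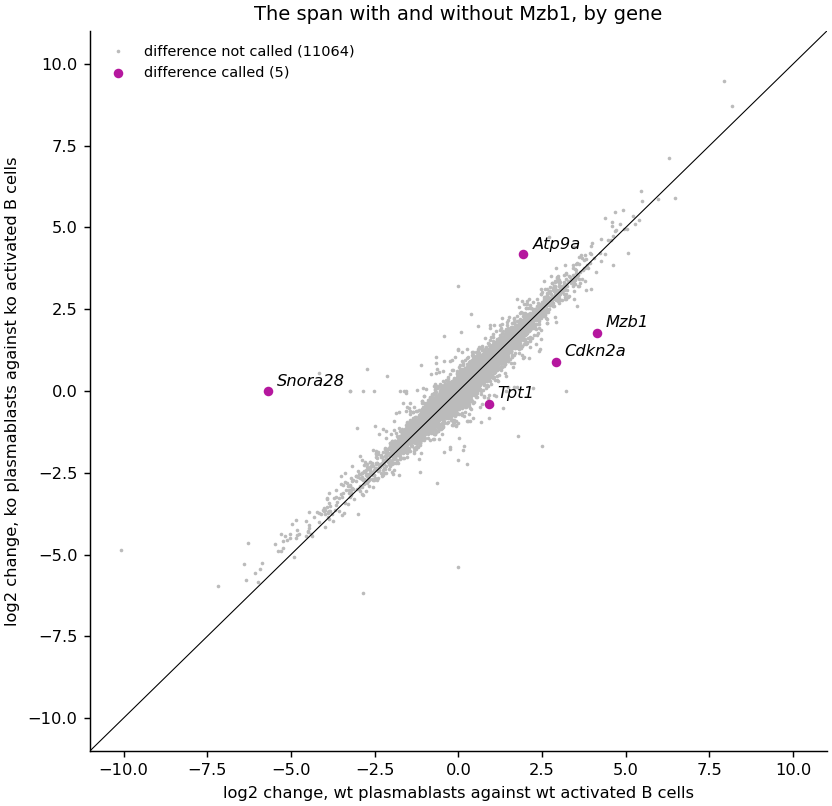
Log2 change from activated B cells to plasmablasts in ko cells (vertical) against that in wt cells (horizontal) for each of the 11069 genes tested; the line marks equal changes. The 5 genes whose difference was called are purple: Atp9a and Snora28 lie above the line, and Mzb1, Cdkn2a and Tpt1 below it.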

How the data were processed

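RNA was extracted from sorted cells and made into stranded, poly(A)-selected libraries, per the labels' protocols. The mouse build was mm9 and the tools included Cuffnorm 2.2.1 and Cufflinks 2.2.1 beside TopHat2 2.0.14, per the submitters' processing notes. The authors deposited FPKM per gene, without counts, so depth and its precision are not known. The files list 24325 genes.

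The values were taken as log2(FPKM + 1), and genes reaching 1 FPKM in 2 or more of the 12 libraries were kept. limma 3.58.1 (R 4.3.3, trend) was run with a mean per group as the design, for 6 groups, so that all 12 libraries share 1 estimate of the spread with 6 residual degrees of freedom. p-values were adjusted by Benjamini-Hochberg over all 11069 genes. The comparison, its members and the 31 gene lists were chosen with earlier results of these data known, and the lists are described by counts and medians with no test. Named genes are the 15 largest rises and falls, the 5 largest of each step, key members and the most changed members of each list, and every gene whose difference between genotypes was called, except a few genes not reported here; further members that did not pass, or that were exceptions in their list, are named with their values. Alternatives were other pseudocounts and filters, quantile and equal-total scaling, a term for the low-value pattern, a minimum change, and leaving out each library. Replicate numbers were shared across groups, and the labels do not say what a number shares. Promoter windows came from RefSeq tables of GRCm38.p6.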

Additional observations from a re-analysis of the deposited data

Results flagged for a closer look

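Each of the 5 genes whose change differed between the genotypes by the limma test of the difference itself is given here. The ko change minus the wt change was 5.69 for Snora28 and 2.25 for Atp9a, and it was -2.36 for Mzb1, -2.01 for Cdkn2a and -1.30 for Tpt1. Snora28 was listed at 0 in all ko libraries, so its value is the fall in wt cells. Mzb1 kept its call under every alternative run, with values between -1.64 and -2.49. Atp9a, Cdkn2a and Tpt1 each lost it when 1 of several libraries was left out.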

How the results depend on the processing

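The counts over the whole span and over the first step stayed within 1.5 times when any 1 library was left out, at 5927 to 6134 and 4902 to 5155 genes. The second step gave 377 to 808 genes, 209 to 485 higher and 168 to 323 lower. The difference between genotypes gave 2 to 10, with 1 to 6 higher and 1 to 4 lower. With a minimum log2 change of 1 the span held 1331 genes (859 higher, 472 lower), the first step 877 (583 and 294), the second 8 (2 and 6) and the difference 2 (1 and 1). Fitting only the groups compared gave 489 for the second step (288 higher, 201 lower), while scaling to equal totals left that step with 389 higher and 1024 lower. For the difference, no filter gave 5 higher, and leaving out small RNA genes gave 1 higher. Among named genes called before or after rescaling, equal totals reversed the log2 changes of Ets1 (-0.22), Blnk (-0.044), Asns (-0.031), Chuk (-0.031) and Rdx (-0.012). Quantile normalization reversed those of Blnk (-0.096) and Cd74 (-0.64). The cause of the other moves was not tested. Of 4249 pairs of a named gene and a setting, 177 lost the call, 25 gained it and 7 reversed with a call in either fit. The other 4040 kept a call in the same direction or stayed uncalled. Sign changes of genes called in neither fit were not counted as reversed. Unknown depth limits what can be said of low genes.

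With the replicate number as a block, the span held 7245 genes (3632 higher, 3613 lower), the first step 6425, the second 1743 (1050 and 693) and the difference 6. The numbers share no stated source, so no pairing was taken in the main fit. Deviations of same-numbered ko libraries correlated at 0.29 (activated B cells and pre-plasmablasts), 0.11 (activated B cells and plasmablasts) and 0.096 (pre-plasmablasts and plasmablasts). Those of wt libraries correlated, in the same order, at 0.046, 0.24 and 0.32. Between genotypes the correlations ran from -0.11 to 0.069. What same-numbered libraries of a genotype share was not tested, and the main fit leaves it out.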
